A study of Homo sapiens with 12 samples.

Results

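The AP-1 and immediate early genes were read here as 10 named genes of the 58735 in the count table: the FOS family (FOS, FOSB, FOSL1 and FOSL2), the JUN family (JUN, JUNB and JUND), and EGR1, IER2 and IER3. They are defined by gene name, without a threshold on values. All 10 were in the table, and 8 were among the 16646 genes that passed the filter on low counts. FOSL1 and IER3 did not pass it and are described by their reads alone.

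The libraries were polyA RNA-seq of C4.2B cells, a subline of the human prostate cancer line LNCaP that grows without androgen, and the study asked how inhibition of AKT and of the histone methyltransferase EZH2 changes transcription alone and together. The DMSO arm received vehicle. The AKTi arm received ipatasertib, an inhibitor of the AKT kinases, at 0.25 µM for 24 hours. The EZH2i arm received tazemetostat, an inhibitor of EZH2, at 1 µM for those 24 hours after 6 days of pretreatment with tazemetostat, and the combination arm received the same tazemetostat schedule with 0.25 µM ipatasertib. Cells of all 4 arms, DMSO included, were dosed for the 24 hours in medium with charcoal-stripped serum, and each arm had 3 libraries, named A, B and C, from separate plates of 1 line, so p-values measure the spread between these plates. EZH2i and the combination thus differ from AKTi and DMSO in length of drug exposure as well as in drug.

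AP-1 is a dimer of basic leucine zipper proteins. A JUN protein can pair with another JUN protein or with a FOS protein, while FOS proteins need a JUN partner, so the makeup of both families sets which dimers can form. Immediate early genes such as FOS, EGR1 and IER2 are transcribed within minutes of growth factor or stress signalling without new protein synthesis, mostly through factors already bound at their promoters, and their RNA usually decays quickly, whereas JUND RNA is typically steadier. EZH2 is the catalytic subunit of the complex that places the repressive methyl mark on histone H3 lysine 27.

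The promoters of such genes can carry short motifs that AP-1, CREB/ATF and serum response factors recognise. RefSeq promoter windows of GRCh38.p14, from 250 bases before to 50 bases after the start, were available for 8 of the 10 members (not for FOSL1 or IER3) and were searched on both strands for TGANTCA (the AP-1 site), TGACGTCA (the cAMP response element), its half-site TGACGT, TGACATCA (the variant known from the JUN promoter), GCGNGGGCG (the EGR site) and the CArG box of serum response factor. The half-site is contained in the full element, so matches of these 2 overlap. The sequences below are the 30 bases around chosen matches in the members that the results turn on, 5′ to 3′ on the strand of the gene, with the match in capitals. They are shown because JUN, FOSL2, FOS and JUND were the members called in the combination, and EGR1 because its window held the CArG boxes.
JUN, chr1:58784096-58784125, minus strand: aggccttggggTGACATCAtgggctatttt
FOSL2, chr2:28392780-28392809, plus strand: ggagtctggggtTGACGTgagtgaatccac
FOSL2, chr2:28392850-28392879, plus strand: gtgccattgtagTGACTCAtctcgggcaga
FOS, chr14:75278752-75278781, plus strand: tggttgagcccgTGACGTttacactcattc
JUND, chr19:18281804-18281833, minus strand: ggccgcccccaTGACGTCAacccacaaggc
EGR1, chr5:138465364-138465393, plus strand: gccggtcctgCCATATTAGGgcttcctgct
EGR1, chr5:138465386-138465415, plus strand: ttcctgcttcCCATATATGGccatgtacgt

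The JUN match began 67 bases before the start, the FOSL2 half-site 66 bases before it and the FOS half-site 64 bases before it. FOSL2 also held an AP-1 site that began at base 5 from the RefSeq start. JUND held the full cAMP response element and EGR1 held the CArG boxes, while the windows of JUNB and IER2 held none of the letters searched. Sites more than 250 bases before the start were not searched. A window without a CArG box, such as that of FOS, therefore does not mean a promoter without one. Further matches, not printed, were an EGR site from base -198 and half-sites from bases -136 and -67 in EGR1. JUND held a separate half-site from base -87, and FOSB held a half-site from base -60. Of 35116 promoter windows of the same length, 7.71% held the AP-1 site, 7.98% the half-site, 1.85% the full element, 2.61% the JUN-type variant, 9.43% the EGR site and 1.29% a CArG box. A match is a description of the sequence and was not tied to binding in these cells.

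Total counts per library ran from 14133755 to 22276417. The share of counts from mitochondrial genes was 2.37% to 3.36% in DMSO, 3.93% to 4.29% in AKTi, 4.35% to 5.31% in EZH2i and 5.14% to 5.64% in the combination. Its arm means thus rose in the order of those of FOSL2, and its part in the results was not tested. All 10 luminal prostate markers were measured in every arm, with a summed level of 3950 to 4083 CPM (counts relative to the library's total) in DMSO, 5996 to 6168 CPM in AKTi, 6462 to 6669 CPM in EZH2i and 8212 to 8411 CPM in the combination. KLK3 was the largest item in that sum, with a mean of 1372 CPM in DMSO and 3941 CPM in the combination, while 8 of the 10 markers rose and HOXB13 and EPCAM fell there. The 13 markers of other cell types summed to 7.48 to 11.5 CPM in DMSO, 8.90 to 10.2 CPM in AKTi, 23.9 to 27.0 CPM in EZH2i and 17.6 to 21.2 CPM in the combination, with KRT5 and CD3E at 0 in every library. COL1A1 and VWF were the largest items of that small sum in every arm. The mean of COL1A1 was 5.67 CPM with vehicle, 5.05 after AKTi, 16.8 after EZH2i and 11.9 after both drugs. That of VWF was 2.58, 3.88, 5.96 and 6.06 CPM, listed in the same order. The summed level moved with EZH2i, as JUN and FOSL2 did, and its part in their change was not tested.

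CPM values are scaled by trimmed mean of M-values (TMM), which sets libraries on a common scale. Fold changes and adjusted p-values are from edgeR's quasi-likelihood test over the 16646 genes with Benjamini-Hochberg adjustment, and a gene is called at an adjusted p under 0.05. Against DMSO, the combination called 4 of the 8 tested members, all higher: FOSL2, JUN, FOS and JUND. The background was 73.2% of genes called in either direction, 38% higher and 35.2% lower, so 4 of 8 is not more than this comparison calls in general. FOS passed the low-count filter only through the combination, the arm where it was high, and its place among the 4 carries no support. EZH2i called 2 members, FOSL2 and JUN, both higher, against a background of 64.1% in either direction, 32.6% higher and 31.5% lower, and AKTi called 2 higher, FOSL2 and JUND, against 42.5%, 20.6% and 21.9%. Libraries did not overlap with DMSO for 4 members in the combination (74.5% of tested genes), 2 in EZH2i (66.2%) and 3 in AKTi (51.1%). The 4 in the combination include FOS, whose place there carries no support either. The 3 comparisons share the DMSO libraries. The median log2 fold change of the 8 members was 0.66 for the combination, 0.47 for EZH2i and 0.16 for AKTi, beside 0.06, 0.03 and 0.01 over all tested genes. FOS and EGR1 were under the filter level in every DMSO library and passed through treated arms, and over the other 6 members the medians were 0.23, 0.47 and 0.28.

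**Figure D1:**
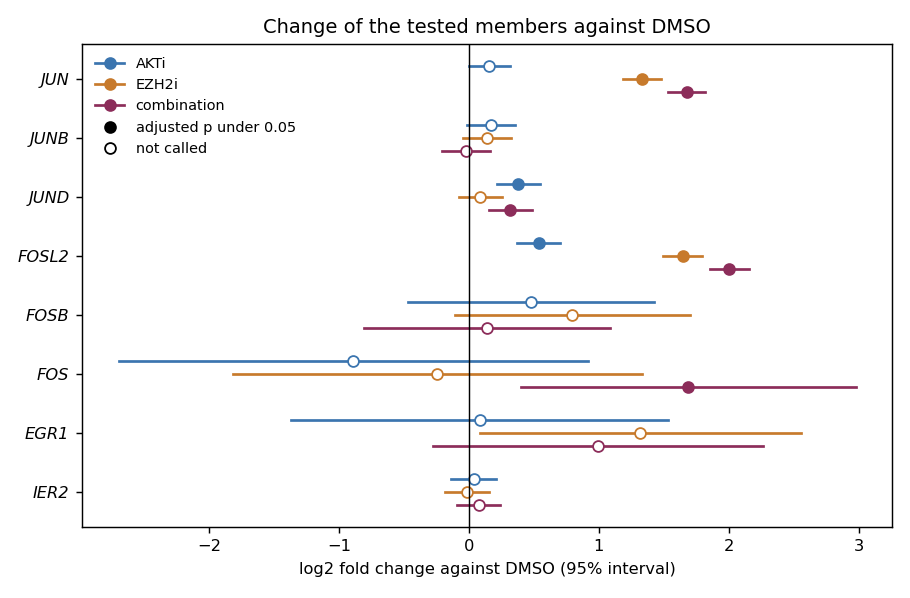
Log2 fold change against DMSO (x axis) of the 8 tested members (y axis) for AKTi, EZH2i and the combination, with 95% intervals of edgeR's quasi-likelihood fit; filled points have an adjusted p under 0.05. FOSL2 and JUN lie far to the right in EZH2i and the combination, JUNB and IER2 stay near 0, and the intervals of FOS, FOSB and EGR1 are wide.

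FOSL2 (ENSG00000075426, hg38 chr2:28392448-28417312, plus strand) encodes FRA2, a FOS protein without the strong activation domain of FOS itself. Its levels were 22.4, 22.1 and 26.5 CPM in DMSO, 34.6, 32.4 and 36.7 CPM in AKTi, 72.5, 73.7 and 77.2 CPM in EZH2i, and 96.8, 94.6 and 95.4 CPM in the combination. The 4 arms formed 4 separate steps with no overlap between any of them. The log2 fold change against DMSO was 0.54 (SE 0.080, adjusted p = 8.8e-07) in AKTi, 1.65 (SE 0.075, adjusted p = 2.1e-20) in EZH2i and 2.0 (SE 0.075, adjusted p = 1.1e-23) in the combination, a 4.01-fold rise. FOSL2 was higher in the combination than in EZH2i by 0.36 on the log2 scale (adjusted p = 2.7e-05), and higher than in AKTi by 1.47 (adjusted p = 1.6e-19). The interaction, which asks whether the combination departs from the sum of both single changes on the log2 scale, was -0.18 (95% interval -0.39 to 0.03, adjusted p = 0.22) and was not called. A larger rise than that of FOSL2 in the combination was found for 7.93% of all tested genes. An antisense gene, FLJ31356, overlaps FOSL2 and held 194 counts over the 12 libraries against 11803 for FOSL2.

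JUN (ENSG00000177606, hg38 chr1:58780788-58784327, minus strand) encodes c-JUN, the JUN protein whose activity is raised by phosphorylation by JNK kinases and which can activate its own promoter. Its levels were 29.6, 27.7 and 29.7 CPM in DMSO and 31.5, 31.9 and 33.6 CPM in AKTi. They were 79.4, 66.9 and 73.6 CPM in EZH2i and 93.1, 93.1 and 92.3 CPM in the combination. The AKTi libraries all lay above the DMSO libraries, but by 0.16 on the log2 scale, which was not called (adjusted p = 0.11). Under library-size and upper-quartile scaling that difference was 0.21 and was called. In EZH2i JUN rose by 1.33 (SE 0.072, adjusted p = 2.8e-18), and in the combination by 1.68 (SE 0.072, adjusted p = 7.4e-22), a 3.19-fold rise. The combination was higher than EZH2i by 0.34 (adjusted p = 4.3e-05) and higher than AKTi by 1.52 (adjusted p = 4.0e-20). The interaction of 0.19 (95% interval -0.02 to 0.39, adjusted p = 0.18) was not called. In the combination 10.8% of tested genes rose more than JUN.

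**Figure D2:**
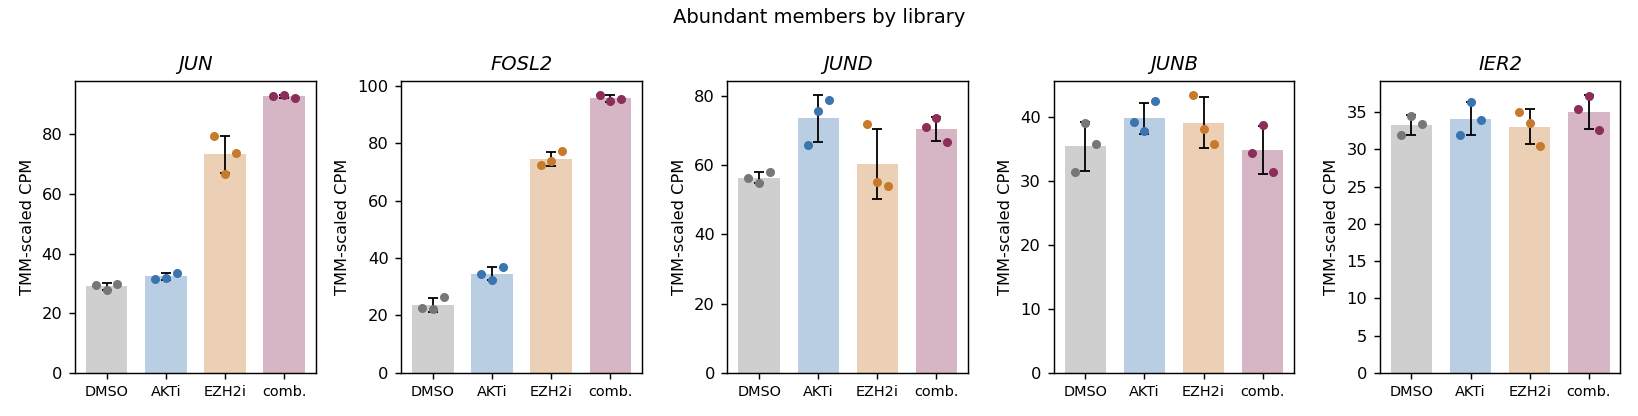
TMM-scaled CPM (y axis, from 0) of the 5 abundant members in each of the 12 libraries by arm (x axis); points are libraries, bars are means and error bars are SD with n = 3. JUN and FOSL2 step up in EZH2i and again in the combination, while JUNB and IER2 overlap across arms.

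JUND (ENSG00000130522, hg38 chr19:18279760-18281622, minus strand) encodes the JUN protein that is broadly present in resting cells. Like FOSL2, it was called in AKTi and in the combination, but it was not called in EZH2i. Its levels were 56.2, 55.0 and 58.1 CPM in DMSO, 65.9, 75.8 and 78.9 CPM in AKTi, 71.9, 55.3 and 53.9 CPM in EZH2i, and 71.2, 73.5 and 66.6 CPM in the combination. AKTi and the combination lay above DMSO without overlap, while of the EZH2i libraries A lay above the DMSO range, B within it and C just below it. JUND rose by 0.38 in AKTi (SE 0.083, adjusted p = 2.5e-04) and by 0.32 in the combination (SE 0.082, adjusted p = 7.3e-04). The EZH2i difference of 0.09 (95% interval -0.08 to 0.26, adjusted p = 0.35) was not called. Over 19 alternatives this difference ran from -0.07 to 0.23, and 2 of them called it higher (lowest adjusted p = 0.012). The combination did not differ detectably from AKTi, at -0.06 (95% interval -0.23 to 0.10, adjusted p = 0.52). EZH2i was lower than AKTi by 0.29 on the log2 scale (log2 fold change -0.29, adjusted p = 0.0030). The difference of combination from EZH2i, 0.23 (adjusted p = 0.019), was lost with DESeq2 (adjusted p = 0.065) and without EZH2i B, EZH2i C, combination A or combination B, where it ran from 0.17 to 0.22.

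JUNB (ENSG00000171223, hg38 chr19:12791496-12793315, plus strand) encodes a JUN protein that often opposes c-JUN in growth control. Its levels were 31.4, 39.0 and 35.7 CPM in DMSO, 39.1, 37.7 and 42.4 CPM in AKTi, 43.4, 38.1 and 35.7 CPM in EZH2i, and 34.3, 38.7 and 31.3 CPM in the combination. Every arm overlapped DMSO, and none of the 3 differences from DMSO was called, at 0.17 in AKTi (adjusted p = 0.14), 0.14 in EZH2i (adjusted p = 0.18) and -0.02 in the combination (95% interval -0.21 to 0.16, adjusted p = 0.83). With library-size or upper-quartile scaling the 2 single-drug differences were called. The interaction was -0.33 (SE 0.13, adjusted p = 0.0496), the only one called among the 8 members against 28.2% of tested genes, 17.5% lower and 10.7% higher, and 11 of 18 alternatives lost it. JUNB lies within the span of HOOK2 on the opposite strand, which held 14355 counts against 7373 for JUNB. The strand setting of the counting is not given in the sources used here, so reads of these 2 genes may not be told apart.

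Against the single drugs, the combination called 4 of 8 members higher than EZH2i (FOSL2, JUN, FOS and JUND), with a background of 46.7% in either direction, 21.1% higher and 25.7% lower. It called 3 of 8 higher than AKTi (FOSL2, JUN and FOS), with a background of 64.2%, and 32.1% in each direction. FOS passed the filter only through the combination, so its place in both counts carries no support. JUNB was lower in the combination than in AKTi (log2 fold change -0.19, adjusted p = 0.064), which was not called. Of 19 alternatives, 8 called that JUNB difference (lowest adjusted p = 0.012). Libraries did not overlap for 3 members against EZH2i (FOSL2, JUN and FOS, beside 53.5% of tested genes). Against AKTi they did not overlap for 4 (FOSL2, JUN, FOS and EGR1, beside 67.9%). FOS and EGR1 passed the filter only through arms where they were high, so their places in these 2 counts carry no support. Directly compared, EZH2i and AKTi differed in 3 members, with FOSL2 higher in EZH2i by 1.11 (adjusted p = 2.4e-15), JUN higher by 1.18 (adjusted p = 3.1e-16) and JUND lower, against a background of 50.4% in either direction, 25.4% higher and 25.1% lower. FOSL2 and JUN did not overlap between these arms (56% of tested genes).

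FOS (ENSG00000170345, hg38 chr14:75278774-75282230, plus strand) encodes c-FOS, the founding immediate early transcription factor. It was nearly unread, with 5, 2 and 4 reads in DMSO, 0, 3 and 2 in AKTi, 3, 5 and 2 in EZH2i, and 19, 11 and 10 in the combination. The combination libraries lay above all 9 others, and the single-drug arms overlapped DMSO. Summed reads scaled for depth were 3.34 times those of DMSO (95% interval 1.68 to 7.22, counting error only) and 4.01 times those of EZH2i (95% interval 1.97 to 9.0). The fitted log2 fold change was 1.69 against DMSO (SE 0.63, adjusted p = 0.017), 1.93 against EZH2i (adjusted p = 0.013) and 2.58 against AKTi (SE 0.74, adjusted p = 0.0026). The call against DMSO was lost with DESeq2 (adjusted p = 0.083), with all genes of at least 1 count tested, and without DMSO B, DMSO C or combination A, where the adjusted p reached 0.091. The call against EZH2i was lost with DESeq2 (adjusted p = 0.063), with all genes of at least 1 count tested (adjusted p = 0.063), and without EZH2i C (adjusted p = 0.093) or combination A (adjusted p = 0.078). Because FOS entered the test only through the arm where it was high, these calls are a description. The interaction was 2.82 (SE 1.1, adjusted p = 0.053) and was not called. FOS reached 0.73 ± 0.20 CPM (SD, n = 3) in the combination, and it made up 0.75% ± 0.20 of the FOS-family CPM there. Per kb of gene length its share was 1.6% ± 0.43.

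**Figure D3:**
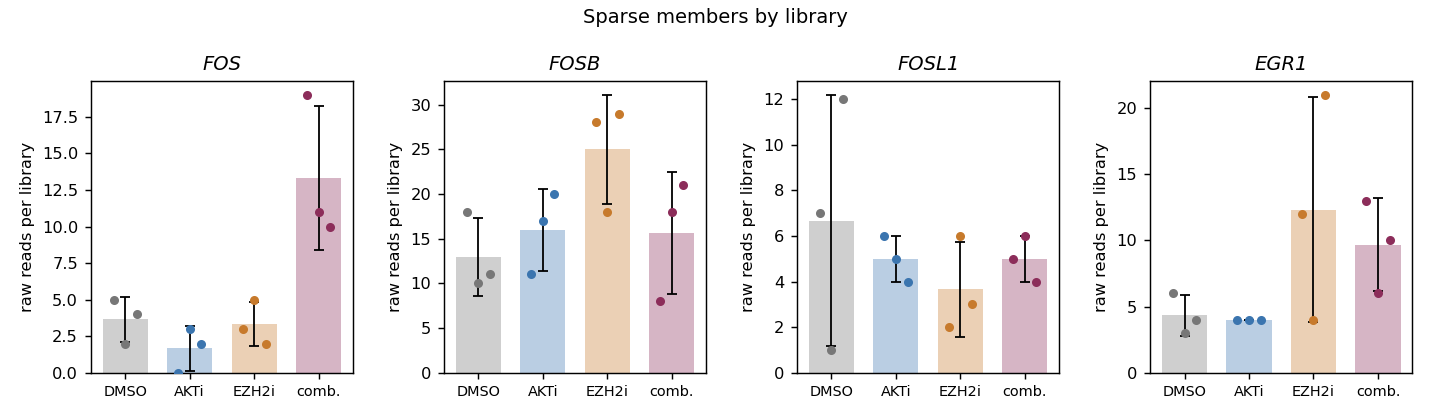
Raw reads (y axis, from 0) of the 4 sparse members in each of the 12 libraries by arm (x axis); points are libraries, bars are means and error bars are SD with n = 3, without scaling for depth. FOS reads are 10 to 19 in the combination and 0 to 5 elsewhere, and the arms of FOSB, FOSL1 and EGR1 overlap DMSO.

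FOSB (ENSG00000125740, hg38 chr19:45467995-45475179, plus strand), the FOS protein known for persistent forms after repeated stimulation, had 18, 10 and 11 reads in DMSO, 11, 17 and 20 in AKTi, 28, 18 and 29 in EZH2i, and 8, 18 and 21 in the combination. All arms overlapped DMSO. No comparison was called, the highest difference being 0.80 in EZH2i (95% interval -0.11 to 1.70, adjusted p = 0.12). FOSB overlaps ERCC1 on the opposite strand, which held 5746 counts against 209 for FOSB.

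EGR1 (ENSG00000120738, hg38 chr5:138465490-138469315, plus strand), a zinc finger factor induced by ERK signalling, had 6, 3 and 4 reads in DMSO, 4 in each AKTi library, 12, 4 and 21 in EZH2i, and 13, 6 and 10 in the combination. EZH2i C and EZH2i A were high and EZH2i B was at the DMSO level. The difference in EZH2i was 1.32 (95% interval 0.09 to 2.55, adjusted p = 0.057) and that in the combination 0.99 (95% interval -0.28 to 2.27, adjusted p = 0.15), and neither was called. Without EZH2i B the first was 1.71 with an adjusted p of 0.018, and it was also called under library-size and upper-quartile scaling. EGR1 passed the low-count filter only through EZH2i and the combination, the arms where it was high, so these calls are a description.

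FOSL1 (ENSG00000175592, hg38 chr11:65892049-65900573, minus strand), which encodes FRA1 and is often raised in invasive carcinoma cells, had 7, 1 and 12 reads in DMSO, 6, 5 and 4 in AKTi, 2, 6 and 3 in EZH2i, and 5, 6 and 4 in the combination. All arms overlapped. When every gene with at least 1 count was tested, the FOSL1 difference was -0.89 in EZH2i (adjusted p = 0.50) and -0.49 in the combination (adjusted p = 0.69). The difference from DMSO was not detectable at this depth.

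IER2 (ENSG00000160888, hg38 chr19:13150415-13154908, plus strand), a small nuclear protein gene of the serum response, overlapped DMSO in every treated arm. Its levels were 31.9, 34.5 and 33.4 CPM in DMSO, 31.97, 36.4 and 33.9 CPM in AKTi, 35.02, 33.6 and 30.5 CPM in EZH2i, and 35.4, 37.1 and 32.6 CPM in the combination. The difference from DMSO was 0.04 in AKTi (adjusted p = 0.77), -0.01 in EZH2i (adjusted p = 0.89) and 0.08 in the combination (95% interval -0.09 to 0.24, adjusted p = 0.42). With library-size scaling the last was 0.27 and called (adjusted p = 0.0034), and with upper-quartile scaling 0.26 (adjusted p = 0.0053), where the median of all genes stood at 0.26 and 0.25.

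IER3 (ENSG00000137331, hg38 chr6:30743199-30744554, minus strand), an early stress gene that modulates ERK signalling and survival, was listed at 0 in all 12 libraries. Of its neighbours on the chromosome, FLOT1 held 35937 and TUBB 160766 counts over the 12 libraries, and DDR1 on the other side held 42073. Among the neighbours read least, GTF2H4 held 31 counts, SFTA2 16 and MUCL3 1. A count of 0 allows up to 3 counts in each library, for counting error only. Whether the 0 comes from the cells or from how reads were assigned to genes cannot be told apart from the table. The antisense gene IER3-AS1, which overlaps it, held 92 counts.

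Compared per length, in CPM per kb of the gene length in the count table, the members kept JUND at the top of every arm and changed order below it. In DMSO the order was JUND at 30.3, JUNB at 19.4, IER2 at 10.8, JUN at 8.19 and FOSL2 at 3.30 CPM per kb, with no overlap between neighbours. The sparse members FOSL1, FOSB, EGR1 and FOS followed between 0.20 and 0.070 CPM per kb, each overlapping the next. In EZH2i JUN had come level with JUNB (20.7 and 21.5, overlapping) and FOSL2 with IER2 (10.4 and 10.8, overlapping). In the combination the order was JUND at 37.8, JUN at 26.2, JUNB at 19.1, FOSL2 at 13.4 and IER2 at 11.4 CPM per kb, again without overlap between neighbours.

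The makeup of both families followed. JUN made up 14.2% ± 0.85 of the JUN-family level per length in DMSO, 13.0% ± 0.49 with AKTi, 27.9% ± 1.9 with EZH2i and 31.6% ± 1.4 with both (SD, n = 3). The share of JUNB was 33.5% ± 2.8 in DMSO and 22.9% ± 1.4 in the combination, and that of JUND 52.3% ± 2.0 and 45.5% ± 0.32, although the CPM of neither was called lower. FOSL2 made up 89.0% ± 4.4 of the FOS-family level in DMSO and 96.1% ± 0.26 in the combination, so it was the main FOS-family RNA in every arm. The summed FOS-family level was 3.72 ± 0.43 CPM per kb in DMSO, 5.25 ± 0.29 with AKTi, 10.8 ± 0.27 with EZH2i and 13.9 ± 0.13 with both. The JUN-family sum moved less, from 57.9 ± 1.9 in DMSO to 70.4 ± 4.7, 74.6 ± 8.9 and 83.1 ± 4.0 CPM per kb in the treated arms. The ratio of JUN-family to FOS-family RNA per length was 15.7 ± 1.9 in DMSO, 13.4 ± 0.74 with AKTi, 6.90 ± 0.97 with EZH2i and 5.99 ± 0.31 with both, with DMSO and AKTi apart from both EZH2i arms. Shares depend on the scale. Without division by length JUN made up 24.0% ± 1.3 of the JUN family in DMSO and 46.9% ± 1.6 in the combination. On that scale it stood above JUND in the combination, at 35.5% ± 0.47. These shares are of RNA and say nothing of protein or dimers, and in bulk libraries a higher level in each cell and a larger share of expressing cells cannot be told apart.

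**Figure D4:**
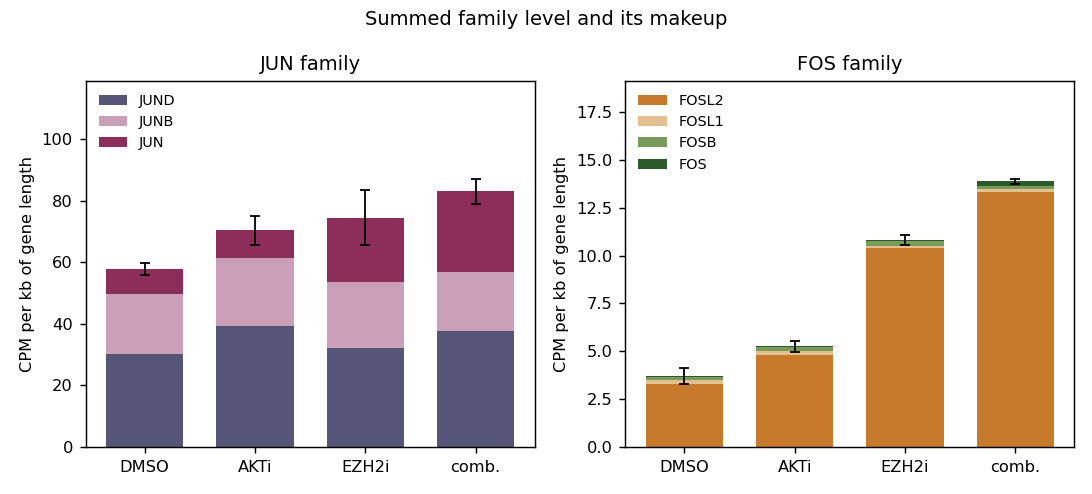
Summed level of the JUN family (left) and FOS family (right) in CPM per kb of gene length (y axis, from 0) by arm (x axis), stacked by member means; error bars are the SD of the sum with n = 3. FOSL2 fills nearly all of the FOS-family bar, and JUN takes 31.6% of the JUN-family bar in the combination against 14.2% in DMSO.

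The spread between plates differed among members. The pooled SD within arms, on the log2 scale, was 0.072 for JUN and 0.089 for FOSL2 and IER2, against a median of 0.14 over all tested genes, and 0.14 for JUNB and JUND. It was 0.52 for FOS and EGR1 and 0.53 for FOSB.

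The genes most like each of the 4 called members over the 12 libraries, by root-mean-square difference of centred log2 CPM, were PTPRM (0.094), BTD (0.10) and VGLL4 (0.13) for FOSL2, and GALNT10 (0.062), ZBTB18 (0.089) and PLEKHA6 (0.10) for JUN. JUN and FOSL2 differed from each other by 0.17 on this measure. For JUND they were ZNF316 (0.065), LTBP3 (0.085) and PHF13 (0.085). For FOS the nearest, TMEM232 (0.37), CTAGE4 (0.39) and RND3 (0.40), were much less alike, as the sparse reads of FOS allow.

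Around the members, the other basic leucine zipper genes that can pair with AP-1 proteins were mostly higher. Of 14 listed, 10 were tested, and in the combination 8 rose and none fell against DMSO, with a median log2 fold change of 0.77 beside 0.06 over all tested genes, of which 38% rose. EZH2i raised 6 and lowered 1 (32.6% and 31.5% of all tested genes), and AKTi raised 5 and lowered 2 (20.6% and 21.9%). This list and those below were chosen with earlier results of these data known, so their counts beside the background are a description. MAF, a large MAF factor, stood at 0.942, 1.18 and 1.01 CPM in DMSO, 1.74, 1.89 and 2.29 CPM in AKTi, 33.5, 31.6 and 32.4 CPM in EZH2i, and 23.6, 25.4 and 26.4 CPM in the combination. It rose by 4.96 in EZH2i (adjusted p = 2.4e-25) and by 4.59 in the combination (adjusted p = 8.7e-25), and was lower in the combination than in EZH2i by 0.37 (log2 fold change -0.37, adjusted p = 0.0020). MAFF, a small MAF protein without an activation domain, was at 1.19 ± 0.30 CPM in DMSO and 5.79 ± 0.41 CPM in the combination, a rise of 2.27 (adjusted p = 3.3e-09), beside 2.37 ± 0.70 CPM in AKTi and 1.92 ± 0.57 CPM in EZH2i.

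The wider immediate early list split. Of 37 genes 32 were tested. In the combination 16 rose and 11 fell, with a median of 0.43, where 38% of all tested genes rose and 35.2% fell. In EZH2i 18 rose and 6 fell (32.6% and 31.5% of all tested genes), and in AKTi 10 rose and 7 fell (20.6% and 21.9%). Without the 1 gene under the filter level in every DMSO library the combination median was 0.27. PLK2, a polo-like kinase induced by stress, was at 5.40 ± 0.65 CPM in DMSO, 10.4 ± 0.23 with AKTi, 87.4 ± 12 with EZH2i and 82.6 ± 3.3 with both, a rise of 3.91 in the last (adjusted p = 3.8e-28). KLF4, a zinc finger factor of epithelial differentiation, was at 5.94 ± 0.95 CPM in DMSO, 7.09 ± 0.63 with AKTi, 14.5 ± 1.2 with EZH2i and 28.9 ± 1.4 with both, and its interaction of 0.76 was called (adjusted p = 0.0016). DUSP2, a phosphatase of MAP kinases, fell stepwise from 44.9 ± 2.1 CPM in DMSO to 33.1 ± 0.80 with AKTi, 19.99 ± 2.4 with EZH2i and 10.7 ± 0.084 with both, by 2.06 on the log2 scale (adjusted p = 1.3e-20). ARC, best known from neurons, fell from 7.41 ± 0.64 to 1.62 ± 0.051 CPM in the combination, by 2.19 (adjusted p = 8.2e-12).

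The upstream factors and kinases, which include the ERK, JNK and p38 kinases and the ternary complex factors that act on these promoters, showed no common direction. All 26 were tested, and in the combination 11 rose and 11 fell with a median of 0.04, beside 38% and 35.2% of all tested genes. RPS6KA2, a ribosomal S6 kinase downstream of ERK, rose from 42.5 ± 3.0 to 93.6 ± 8.4 CPM, by 1.13 (adjusted p = 1.4e-16). ELK3, a ternary complex factor, rose by 1.26 in the combination (adjusted p = 5.1e-09) and by 1.54 in EZH2i (adjusted p = 5.0e-11). MAP2K6, which activates p38, fell from 32.9 ± 2.3 to 10.5 ± 1.1 CPM, by 1.64 (adjusted p = 1.6e-16), and RPS6KA4, a kinase that phosphorylates CREB and histone H3, fell from 69.4 ± 4.7 to 34.8 ± 3.2 CPM, by 1.00 (adjusted p = 9.7e-15).

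The ERK feedback genes, whose RNA follows ERK activity in many cells, had 10 of 12 tested. In the combination 6 rose and 2 fell with a median of 0.95, where 38% of all tested genes rose and 35.2% fell. EZH2i raised 2 and lowered 1, where 32.6% of all tested genes rose, and AKTi raised 2 and lowered 2, where 20.6% rose and 21.9% fell. Leaving out the 2 genes under the filter level in every DMSO library, 4 of 8 rose and 2 fell in the combination, with a median of 0.76. DUSP4, an ERK phosphatase, was at 18.9 ± 3.0 CPM in DMSO, 29.9 ± 3.1 with AKTi, 20.5 ± 2.0 with EZH2i and 48.4 ± 2.8 with both, with an interaction of 0.57 (adjusted p = 0.0022). SPRED1, an inhibitor of RAS to RAF signalling, rose by 1.05 (adjusted p = 4.3e-11). PHLDA1 fell from 23.3 ± 3.2 to 15.3 ± 0.54 CPM, by 0.62 (adjusted p = 2.1e-06).

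Of 29 genes that AP-1 is known to regulate in other cells, 12 were tested, and in the combination 6 rose and 2 fell with a median of 0.55, beside 38% and 35.2% of all tested genes. Of the 12, 3 were under the filter level in every DMSO library, among them GJA1, the gap junction protein connexin 43, with 0 reads in all DMSO and AKTi libraries. Over the other 9, 3 rose and 2 fell with a median of 0.13. VIM, the intermediate filament vimentin, was at 8.30 ± 1.0 CPM in DMSO, 12.5 ± 1.5 with AKTi, 32.6 ± 1.4 with EZH2i and 47.2 ± 1.6 with both, a rise of 2.49 (adjusted p = 3.3e-22). HMOX1, heme oxygenase, was at 17.4 ± 1.4 CPM in DMSO, 14.3 ± 2.3 with AKTi, 34.6 ± 0.93 with EZH2i and 61.4 ± 4.6 with both, a rise of 1.81 (adjusted p = 2.3e-19). CCND1, cyclin D1, went the other way in the single-drug arms and the combination: it rose by 0.24 in AKTi (adjusted p = 2.7e-04) and by 0.22 in EZH2i (adjusted p = 5.1e-04) and fell by 0.42 in the combination (adjusted p = 1.1e-08). The metallothionein MT2A fell by 0.51 in the combination (adjusted p = 3.7e-10). The collagenase MMP1, a textbook AP-1 target, had 2, 0 and 8 reads in the combination and 0 in every other library, and the interleukin gene IL6 was listed at 0 in all 12; both were picked after their values were seen.

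All 8 genes of JUN and FOS turnover were tested, with 3 higher and 4 lower in the combination and a median of -0.16, beside 38% and 35.2% of all tested genes. HNRNPD, which binds the AU-rich elements that shorten the life of FOS and other early RNAs, fell from 320 ± 15 to 125 ± 2.3 CPM, by 1.36 (adjusted p = 8.4e-23). ELAVL1, which binds such elements and protects the RNA, fell by 0.81 (adjusted p = 1.1e-15). ITCH and FBXW7, ubiquitin ligase genes for c-JUN, rose by 0.27 (adjusted p = 6.7e-04) and 0.28 (adjusted p = 0.025).

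**Figure D5:**
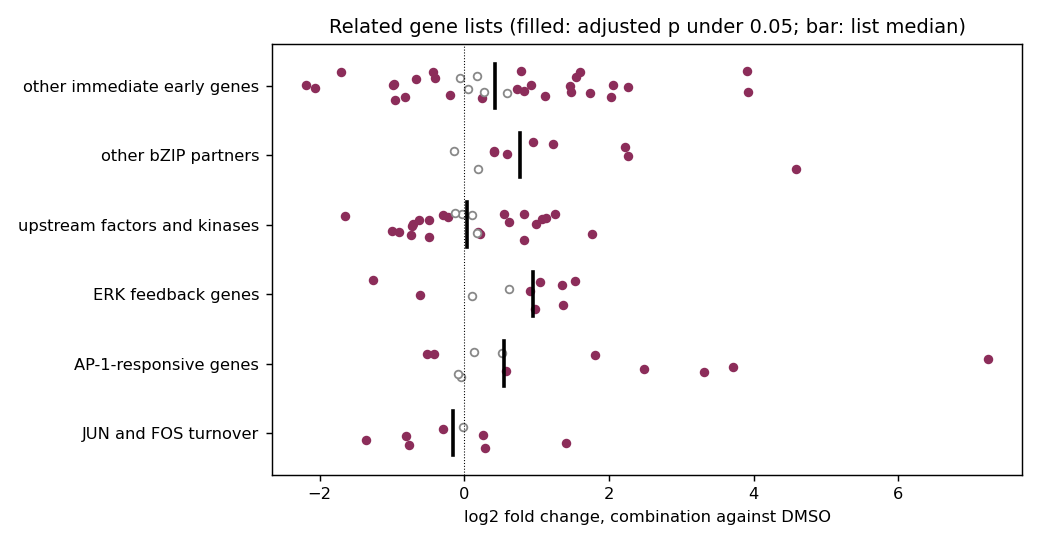
Log2 fold change of the combination against DMSO (x axis) for the tested genes of 6 related lists (y axis); filled points have an adjusted p under 0.05 by edgeR's quasi-likelihood test and black bars are list medians. The basic leucine zipper partners and ERK feedback genes sit mostly right of 0, and the upstream factors spread to both sides.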

How the data were processed

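C4.2B polyA RNA-seq libraries were read in 4 arms of 3. According to the labels and the study's methods, the authors aligned reads with STAR to hg38, counted them per gene with HTSeq and deposited raw counts, beside DESeq2 normalized values; the annotation release and strand setting are not given in the sources used here. The normalized values (deposited signal) equalled the counts divided by 1 factor per library, to within 0.01 counts for 56994 gene names, and were used for that check only.

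Counts were tested with edgeR 4.0.16 (R 4.3.3), with 1 mean per arm over 12 libraries, TMM scaling, filterByExpr (minimum count 10, minimum total 15), the quasi-likelihood test and Benjamini-Hochberg adjustment over 16646 genes at 0.05. Log2 CPM for likeness used a prior count of 2. Intervals of summed reads cover counting error only. DESeq2 1.42.0, other scalings, filters, a replicate block and leaving out each library were tried as alternatives.

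The members and gene lists were chosen with earlier results of these data known. Named from each related list were the 2 highest and 2 lowest called log2 fold changes of the combination against DMSO with a mean log2 CPM of at least 1, and for the 4 called members the 3 most alike protein-coding genes. Promoter sequences were from RefSeq (GRCh38.p14).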

Additional observations from a re-analysis of the deposited data

Results flagged for a closer look

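JUNB was marked because the test of the difference between the AKTi effect without and with EZH2i passed the threshold by a narrow margin. The JUNB log2 fold change was 0.17 for AKTi against DMSO (adjusted p = 0.14) and -0.16 for the combination against EZH2i (adjusted p = 0.14), and neither was called. The interaction of -0.33 on the log2 scale had an adjusted p of 0.0496 by edgeR's quasi-likelihood test. Over 18 alternatives the interaction ran from -0.42 to -0.25 with adjusted p from 0.016 to 0.20, and 11 of them lost the call, the replicate block among them (adjusted p = 0.051). It was 1 call in 8 members, where 28.2% of all tested genes were called. The strand setting behind the JUNB counts is not given, and its part in this difference was not tested.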

How the results depend on the processing

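No direction of a called member change reversed. FOSL2 and JUN kept their calls in EZH2i and the combination against DMSO under all 19 alternatives, with the FOSL2 log2 fold change in the combination between 1.91 and 2.20 and that of JUN between 1.60 and 1.87. Under upper-quartile scaling, and under scaling by library size, AKTi called 4 members and EZH2i 5 against DMSO, all higher, in place of 2 in each. The share of all tested genes called in either direction stayed at 42.9% and 43.0% in AKTi and 65.0% and 64.8% in EZH2i (library size and upper-quartile). The number called higher did not stay level. It went from 3429 to 4112 and 4110 genes in AKTi and from 5421 to 6630 and 6412 in EZH2i, in the same order. EGR1 was among the 5 in EZH2i, and its place carries no support because it passed the filter only through treated arms. Library-size scaling raised the median of all genes in the combination from 0.06 to 0.26 and the EZH2i split from 5421 higher and 5249 lower to 6630 and 4193. With DESeq2 the combination called 2 members against EZH2i in place of 4, with 6985 genes called of 34378 tested (7781 of 16646 by edgeR), and leaving out 1 library gave 2 to 4, with 2 without EZH2i C and without combination A, where 40.5% and 41.3% of all tested genes were called. The interaction called 0 members in place of 1 with DESeq2, with upper-quartile scaling and with at least 10 counts required in every library. The share of tested genes called there was 12.2% of 34378, 28.3% of 16646 and 34.9% of 13359, in that order. DESeq2 thus called 4197 genes, beside 4688 by edgeR with TMM scaling. In edgeR's test 2 members had an unadjusted p under 0.05. Leaving out 1 library gave 0 to 2, with 0 without DMSO A, AKTi C, EZH2i A, combination A or combination C, and 2 without EZH2i B, with 23.1% to 27.2% of all tested genes called in these 6 fits. These counts need not be of JUNB, since among all alternatives 2 called the interaction of FOS and 1 that of FOSL2. FOS passed the filter only through the combination, so its interaction calls carry no support. The cause of these changes was not tested. The replicate letters did not pair the libraries, since 18 same-letter pairs had correlations of deviations between -0.058 and 0.069. A fit with the replicate block called 0 members in the interaction (JUNB adjusted p = 0.051) and changed no other count. The reads of FOS, FOSB, FOSL1, EGR1 and IER3 limit what could be detected for them.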
